A study of Mus musculus with 4 samples.

Results

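The small nuclear and nucleolar RNA genes on this array were the 65 genes, of 18820 with a single gene symbol, whose symbol starts with Snora, Snord, Scarna or Rnu or is Rmrp. They were chosen by symbol, and the probe set of each gene was selected on its mean value over the 4 arrays, the brightest being kept. The set was proposed with its differences between arrays already known, so those differences are described here and not tested. It holds 31 box C/D RNAs, 26 H/ACA RNAs, 3 Cajal body RNAs, 4 small nuclear RNAs and the RNA of RNase MRP. Of the 4 small nuclear RNA genes, Rnu2-10, Rnu5g and Rnu12 encode the spliceosomal RNAs U2, U5 and U12, and Rnu7 encodes U7, which works in the 3′ end formation of histone mRNA.

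Box C/D RNAs guide the methylation of ribose in ribosomal and small nuclear RNA, and H/ACA RNAs guide the conversion of uridine to pseudouridine. A few of them, among them U3, U8, U14, U17 and U22, are needed for the cutting of the precursor of ribosomal RNA. The RNA-protein enzyme RNase MRP also takes part in this task. Most mammalian guide RNAs lie in introns of host genes, many of which encode ribosomal proteins or nucleolar proteins, and are trimmed out of the spliced intron, while U3, U8, the spliceosomal RNAs and Rmrp are transcribed from promoters of their own. Cells that start to grow or divide make more ribosomes and need this machinery.

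The arrays measured total RNA of the inferior vena cava of mice, in which stasis by ligation below the renal veins produces a thrombus. The study asked which genes differ 48 h after ligation and what the loss of Cd39 adds. Cd39 is the product of Entpd1, an enzyme of the cell surface that breaks down extracellular ATP and ADP. The 4 groups were wild-type C57BL/6J mice with a sham operation, wild-type mice with a ligated vein, Cd39-null mice with a sham operation and Cd39-null mice with a ligated vein. All mice were 8 to 10 weeks old and of either sex, and both genotypes had been crossed into C57BL/6J for at least 8 generations. The sham operation opened the abdomen and dissected the vein without tying it. Ligation was complete or partial, and neither the kind of ligation in each pool nor the presence of thrombus in the RNA is stated. RNA of 4 mice was pooled for each group and hybridised to 1 array, so a group has 1 value per gene and no spread between replicates.

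Values are log2 expression values, and a difference of 1.0 is 2-fold. Entpd1, the targeted gene, read 7.11 and 6.17 in wild type (sham, then ligated) and 4.16 and 6.14 in Cd39-null (sham, then ligated). Where 4 values of a gene follow, they are in this order. It was thus 7.73-fold lower in the Cd39-null sham vein, while the ligated arrays differed by -0.03, which goes against the label of the fourth array. Every comparison that uses this array is therefore a comparison with the array labelled Cd39-null, ligated, and without it only the wild-type ligation comparison and the sham genotype comparison remain. The 95th percentile of 1006 olfactory receptor probe sets, used as a stand-in for background, was 2.94, 2.66, 2.97 and 2.68. All 12 endothelial markers lay above it on every array and all 10 smooth muscle markers did so on 3 arrays, with 9 of 10 on the fourth. In bulk tissue, fewer cells of a type and less RNA per cell cannot be told apart.

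Of the 65 small RNA genes, 59 lie within the span of another gene and 6 do not. The sequences of the small RNA genes themselves were not used here. The starts of the containing genes are shown because a transcript that starts within a run of C and T, as ribosomal protein mRNAs do, is the known mark of many guide RNA hosts. They are given for 10 of the 13 genes that contain a small RNA gene differing at least 2-fold in some comparison, and run from 25 bases before the annotated start through the first 20 transcribed bases. Capitals mark a run of 6 or more C or T that lies at least partly within 5 bases of the start, on the transcribed strand.
Rpl4: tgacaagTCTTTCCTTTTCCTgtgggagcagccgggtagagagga
Rplp2: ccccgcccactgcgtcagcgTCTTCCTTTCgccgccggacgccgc
Rpl27a: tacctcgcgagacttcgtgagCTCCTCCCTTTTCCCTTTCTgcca
Rack1: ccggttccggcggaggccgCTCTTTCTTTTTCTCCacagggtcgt
2410006H16Rik: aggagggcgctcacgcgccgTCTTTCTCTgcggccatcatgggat
Snhg12: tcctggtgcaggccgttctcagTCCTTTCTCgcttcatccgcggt
Snhg10: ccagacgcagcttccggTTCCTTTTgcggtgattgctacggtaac
Gm36220: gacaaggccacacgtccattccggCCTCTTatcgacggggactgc
Nop56: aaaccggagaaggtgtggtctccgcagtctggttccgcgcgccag
Snhg3: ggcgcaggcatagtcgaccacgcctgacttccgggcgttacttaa
In RefSeq's GRCm38.p6 annotation these windows are Rpl4 at chr9:64173362-64173406 (plus strand), Rplp2 at chr7:141447626-141447670 (plus strand), Rpl27a at chr7:109519170-109519214 (plus strand), Rack1 at chr11:48800335-48800379 (plus strand), 2410006H16Rik at chr11:62602852-62602896 (plus strand). The others are Snhg12 at chr4:132308653-132308697 (plus strand), Snhg10 at chr12:105032260-105032304 (minus strand), Gm36220 at chr11:106500890-106500934 (plus strand), Nop56 at chr2:130274387-130274431 (plus strand) and Snhg3 at chr4:132353667-132353711 (minus strand). Rpl4 contains Snord16a, Rplp2 contains Snora52, Rpl27a contains Snora3, and Rack1, which encodes a protein of the small ribosomal subunit, contains Snord95 and Snord96a. The noncoding or uncharacterised genes 2410006H16Rik, Snhg12, Snhg10 and Gm36220 contain Snord49a and Snord49b, then Snora16a, Snora44 and Snora61, then Scarna13, and Snord104. Such a run lay at least partly within 5 bases of the start in 8 of these 10 genes. Nop56 (host of Snord57) and Snhg3 (host of Snora73a and Snora73b) had none in this window. In Rpl4 and Snhg10 the run lay wholly before the annotated start, so their annotated transcripts do not start within it. Among all 35 containing genes with sequence, 14 (40.0%) had a run by this rule, against 5664 of 27025 genes in the table (21.0%). A match to this pattern of letters describes the sequence and shows nothing about how it is used.

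Many of the small RNA genes were dim. Above the background lay 27, 34, 29 and 41 of the 65. Across arrays, 25 genes were above background on all 4 and 24 on none, among them Rnu5g, Rnu7, Snora19 and Snord37. The array labelled Cd39-null, ligated had the most of them above background, 63.1%, and the wild-type sham array the fewest, 41.5%. Of all genes 59.8%, 63.5%, 58.1% and 61.7% were above it in the order of the groups, and of microRNA genes 24.2%, 27.5%, 23.2% and 26.8%. The background was itself lower on the ligated arrays (2.66 and 2.68) than on the sham arrays (2.94 and 2.97), so counts of sham and ligated arrays rest on unlike cutoffs. Of the box C/D RNAs 13, 14, 12 and 17 of 31 were above background in the order of the groups, and of the H/ACA RNAs 11, 16, 13 and 18 of 26. The 24 genes under background on every array had a median annotated length of 69.5 nucleotides and the 25 above it on all arrays one of 107. Over all 65, the shorter RNAs were thus more often in the dim set. By class, length and mean level had a Spearman rho of 0.51 among box C/D RNAs and 0.02 among H/ACA RNAs.

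Small RNA genes sat at the upper end of their own range on the array labelled Cd39-null, ligated. This array gave the highest of the 4 values for 37 of 65 (56.9%), against 20.9% of all genes and 13.1% of 306 microRNA genes. MicroRNA genes are another class of short RNA on the platform, though not the only other one. Wild-type sham gave the lowest value for 34 of 65 (52.3%), against 18.8% of all genes and 16.0% of microRNA genes. Among H/ACA RNAs 19 of 26 were highest on the array labelled Cd39-null, ligated (73.1%), and among box C/D RNAs 13 of 31 (41.9%). These shares, and the medians and signs over all 65 given from here on, include the 24 genes above background on no array, describe 1 pool per group and were not tested.

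Between genotypes, 5 small RNA genes were at least 2-fold higher on the Cd39-null array of both the sham pair and the ligated pair, and these pairs share no array. They were Rnu3a, Rmrp, Snord49b, Rnu2-10 and Snora52. The same was true of 38 of all 18820 genes (0.202%), so these 5 made up 13.2% of that list, and 1 of the 38 was a microRNA gene. None of the 65 was at least 2-fold lower in both pairs, as 77 genes were (0.409%). By the smaller of its pair of genotype differences, Rnu3a ranked 1 among all 18820 genes, Snord49b 3, Rmrp 4 and Snora52 30.

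Rnu3a encodes U3, the most abundant box C/D RNA, which base-pairs with the ribosomal RNA precursor and is required for its early cuts. It read 5.63 and 5.47 on the wild-type arrays (sham, ligated) and 8.48 and 7.98 on the Cd39-null arrays. Both wild-type values were near each other and well under both Cd39-null values. The genotype difference was 2.85 (7.20-fold) between the sham veins and 2.51 (5.71-fold) between the ligated veins, while ligation made a difference of -0.17 and -0.50. The other U3 genes on the array, Rnu3b1 to Rnu3b4, share probe sets and are outside the 65. Their common value was 4.85, 3.69, 4.70 and 4.38 on the 4 arrays, a genotype difference of -0.15 (sham) and 0.69 (ligated), so that U3 read as higher by genotype through the Rnu3a probe set and not through this one. Near-identical copies of U3 can exchange signal between probe sets, so the gene of origin is uncertain.

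Rmrp encodes the RNA subunit of RNase MRP, which cuts the ribosomal RNA precursor between the small and large subunit RNAs. Its values were 4.62, 5.11, 6.46 and 7.89 in the order of the groups. Each Cd39-null array was above both wild-type arrays, and each ligated array above the sham array of its genotype. The genotype difference was 1.84 (3.58-fold) in sham and 2.79 (6.90-fold) in ligated veins, and the ligation difference was 0.49 in wild type and 1.44 with the fourth array. None of the 10 measured protein genes of RNase MRP and its relative RNase P was 2-fold apart by genotype, with a median of 0.04 in both pairs. By ligation the list's medians were 0.10 in wild type and -0.03 in Cd39-null. At least 2-fold higher were Pop4 (1.38) and Rpp25 (1.15) in wild type and Pop1 (1.21) in Cd39-null, and none was 2-fold lower; Rpp21 was the lowest, at -0.88 and -0.66.

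Snord49b, a box C/D guide, read 3.77, 3.91, 6.34 and 5.76. It had the same shape as Rnu3a: the wild-type arrays were close together, and the Cd39-null arrays were 5.94-fold (sham) and 3.60-fold (ligated) above them. Snord49a lies in the same containing gene, 2410006H16Rik, and was under background on all arrays, with values of 2.03, 2.10, 1.88 and 2.12. The sham genotype difference was therefore 2.57 for Snord49b and -0.15 for its neighbour, whose level could not be read at this brightness.

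Rnu2-10, a copy of the U2 RNA that pairs with the intron's branch point, read 2.60, 2.32, 4.77 and 3.41. Only the Cd39-null arrays were above background, so the folds are lower bounds against the background: at least 3.56-fold in sham and at least 1.68-fold in ligated veins, where the measured differences were 2.17 and 1.09. Against the bound, the ligated pair was thus no longer 2-fold apart. Its 11 probe sets held 6 distinct sets of values, with genotype differences of 2.06 to 2.32 (sham) and 0.96 to 1.54 (ligated), and U2 copies are near-identical, so the signal cannot be assigned to 1 copy. Snora52, an H/ACA guide inside the ribosomal protein gene Rplp2, read 3.16, 2.69, 4.19 and 4.33, and was 2.04-fold and 3.13-fold higher on the Cd39-null arrays. Its wild-type ligated value of 2.69 was just above background (2.66), so the fold in ligated veins rests on a value near the floor. Its sham difference of 1.03 was the closest to the threshold of the genes inside it, and Snord47 (0.93) was the closest outside.

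**Figure D1:**
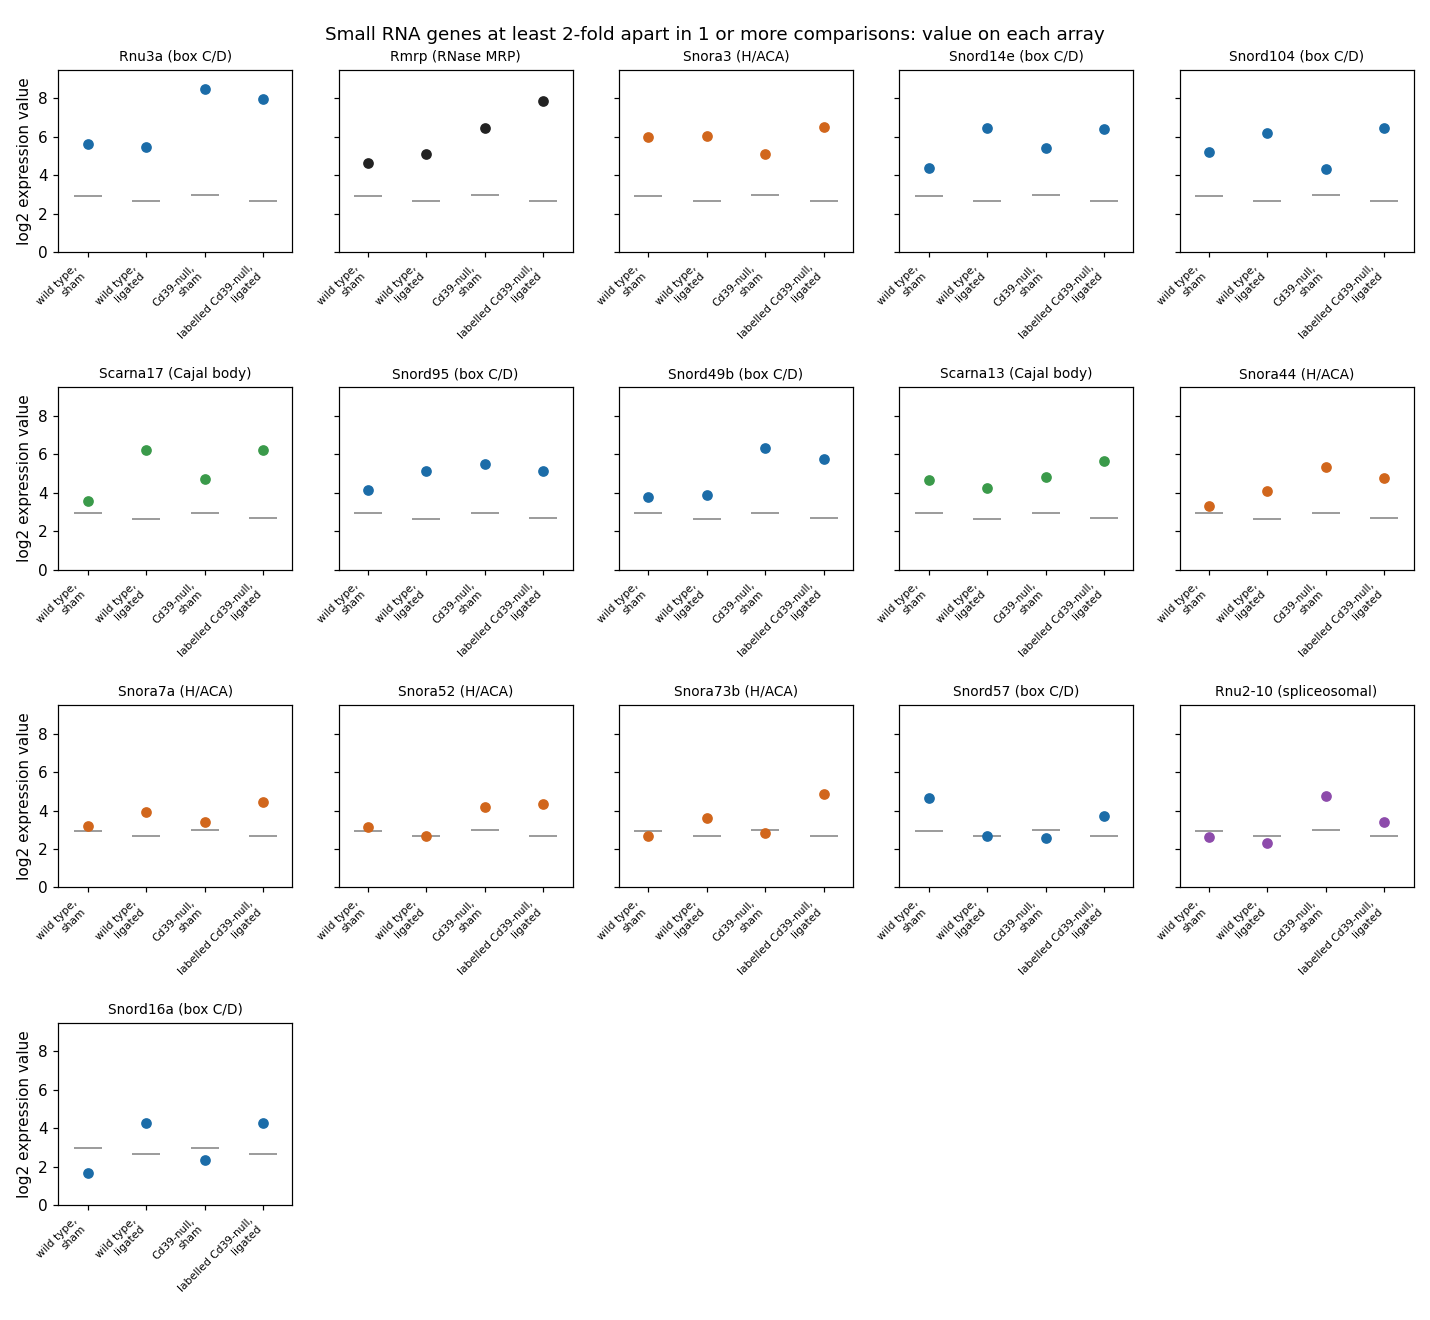
Log2 expression value (vertical axis) of each of the 16 small RNA genes that were at least 2-fold apart in any comparison, with 1 point per array and the array on the horizontal axis; the grey bars are the 95th percentile of olfactory receptor probe sets on that array. Rnu3a, Rmrp, Snord49b and Rnu2-10 are higher on both Cd39-null arrays than on both wild-type arrays, and Snord16a, Snord14e and Scarna17 are higher on both ligated arrays than on both sham arrays.

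By location, the 6 small RNA genes within no other gene were Rmrp, Rnu3a, Rnu2-10, Rnu12, Rnu7 and Snord118, and 3 of these 6 were higher on both Cd39-null arrays, against 2 of the 59 within a gene. Their median genotype difference was 1.17 in sham and 1.00 in ligated veins, against 0.21 and 0.23 for the 59. Snord118, the U8 RNA needed for the large-subunit rRNA, read 1.44, 2.02, 1.94 and 2.93 and passed background only on the array labelled Cd39-null, ligated. Rnu12, of the minor spliceosome, read 2.62, 2.70, 2.43 and 3.14, and Rnu7 and Rnu5g stayed between 1.01 and 1.56 on all arrays. Rnu7 was above background on no array, Snord118 on 1 and Rnu12 and Rnu2-10 on 2, so these medians include unread levels. Location was looked at after the values of these genes were known, and these counts are few.

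Over all 65 genes in the sham pair, 9 were at least 2-fold higher on the Cd39-null array (13.8%) and 1 was lower (1.54%), beside 2.35% and 2.68% of all genes (5.03% either way). The median difference was 0.23, against -0.02 for all genes and 0.08 for microRNA genes. Above 0 were 46 of 65, beside 8925 of 18820 genes and 182 of 306 microRNA genes. Beyond the 5 genes above, those higher were Snora44, Snord95, Scarna17 and Snord14e, and the gene lower was Snord57, at least 3.24-fold lower against background. Snora44 is an H/ACA guide in the noncoding host gene Snhg12, with values of 3.32, 4.09, 5.34 and 4.79, and its sham genotype difference of 2.02 stood beside 0.70 in ligated veins. Snora61, in the same host and above background on all arrays, differed by 0.11 in sham, and Snora16a, also there, was under background on all arrays. Snord95, a box C/D guide in Rack1, read 4.15, 5.15, 5.50 and 5.16, lowest in wild-type sham and closer together on the other 3 arrays. Snord96a, also in Rack1, was under background on all arrays.

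In the ligated pair, 8 of 65 were at least 2-fold higher on the array labelled Cd39-null (12.3%) and 0 lower, beside 2.74% and 2.01% of all genes (4.76% either way). The median was 0.29 against -0.03 for all genes and 0.01 for microRNA genes, and 58 of 65 were above 0, as were 8625 of 18820 genes. Box C/D and H/ACA RNAs had similar medians here, 0.27 and 0.26, whereas in sham the medians were 0.37 and 0.15. Beyond the 5 genes above, those higher were Scarna13 (1.42), Snora73b (1.28) and Snord57 (1.03), and Snord118 at 0.91 was the nearest gene outside the threshold. Scarna13, a Cajal body RNA, read 4.69, 4.25, 4.82 and 5.67, with 3 arrays close together and the array labelled Cd39-null, ligated above them.

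Cell type markers also differed by genotype. Of 10 smooth muscle markers, 9 were at least 2-fold lower on the Cd39-null array in sham and 7 in ligated veins, with median levels of 6.74, 6.08, 5.13 and 5.28 in the order of the groups. Of 10 neutrophil markers, 4 and 6 were at least 2-fold higher, with median levels of 3.43, 4.82, 3.99 and 7.78. In sham 7 of 9 adipocyte markers and 6 of 7 B cell markers were higher on the Cd39-null array and 0 in ligated veins, and of 7 platelet markers 4 were lower in sham and 6 higher in ligated veins. Of 12 endothelial markers 6 were lower in sham and 0 in ligated veins. Of 14 cell cycle markers 3 were higher in sham (Mki67 2.16, Bub1 2.09 and Top2a 1.73, with a list median of 0.32) and 0 in ligated veins (median -0.40). Of 6 T cell markers 3 were higher in sham and 1 in ligated veins, and of 8 fibroblast markers 0 were lower in sham and 4 in ligated veins. The part of these differences in the small RNA values was not tested.

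**Figure D2:**
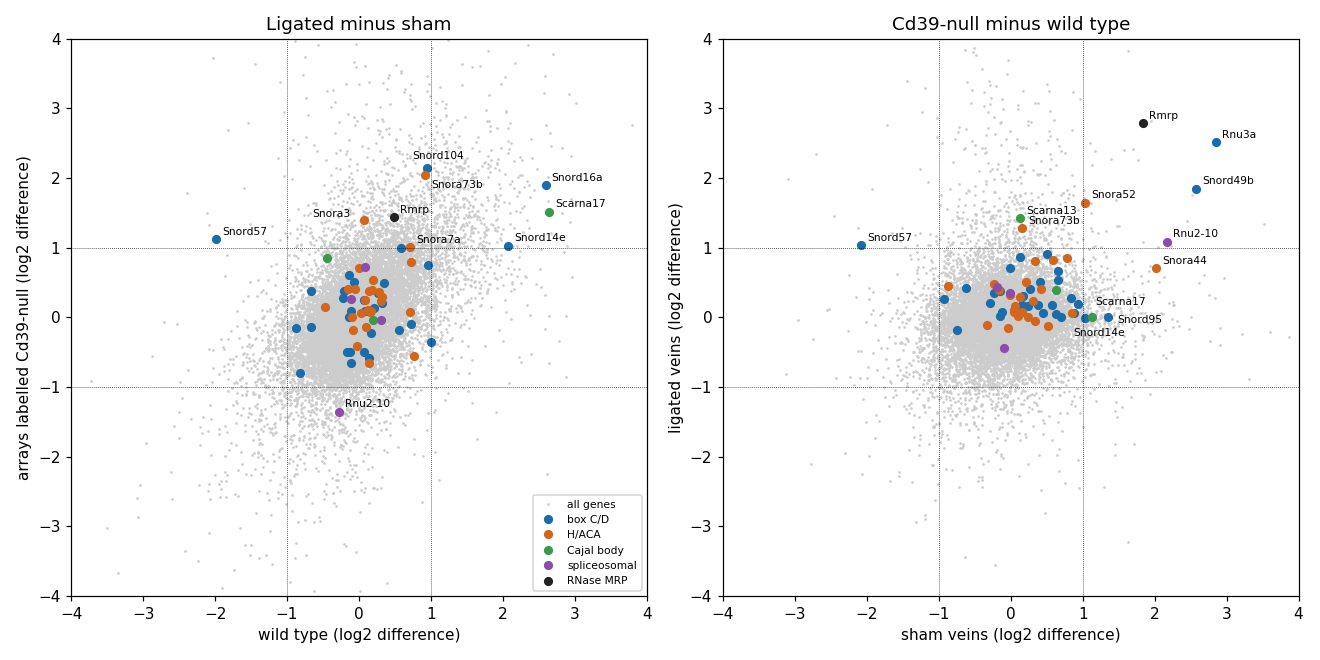
Log2 difference of every gene in pairs of comparisons that share no array: ligated minus sham in wild type (horizontal) against the arrays labelled Cd39-null (vertical) on the left, and Cd39-null minus wild type in sham (horizontal) against ligated veins (vertical) on the right. Grey points are all genes, coloured points the 65 small RNA genes by class, dotted lines mark 2-fold, and genes beyond 4 on either axis are outside the frame; Rnu3a, Rmrp, Snord49b, Snora52 and Rnu2-10 lie in the upper right corner of the right panel, and Snord57 lies in the upper left of both.

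Across the 65 genes the genotype difference in sham and that in ligated veins correlated with a Pearson r of 0.47 and a Spearman rho of 0.16. The rank coefficient was the smaller, and 47 of 65 (72.3%) had the same sign, beside 53.1% of all genes. For the ligation differences of the genotypes the coefficients were 0.43 and 0.30, and 40 of 65 had the same sign (61.5%), beside 68.3% of all genes. All points of a comparison share the same pair of pools, so these are descriptions of the arrays.

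In both genotypes, 3 small RNA genes had ligated values at least 2-fold above sham: Snord16a, Scarna17 and Snord14e. That held for 512 of 18820 genes (2.72%), and none of the 65 was lower in both, as 205 genes were (1.09%). Snord16a, the U16 box C/D guide, read 1.66 (sham) and 4.25 (ligated) in wild type and 2.36 and 4.26 in Cd39-null. Both ligated arrays were well above background and nearly equal, and both sham arrays were under it. The folds are therefore bounds, of at least 2.48-fold in wild type and at least 2.44-fold with the other genotype, against measured differences of 2.59 and 1.90.

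Scarna17, a Cajal body RNA, read 3.58, 6.23, 4.72 and 6.24, so the ligated arrays were again equal and the sham arrays apart. The ligation difference was 2.64 (6.25-fold) in wild type and 1.52 (2.87-fold) in Cd39-null. Snord14e encodes a U14 RNA, which is required for cutting out the small-subunit rRNA, and lies in the heat shock gene Hspa8. Its values of 4.37, 6.44, 5.41 and 6.43 gave ligation differences of 2.07 (4.20-fold) and 1.03 (2.04-fold). The latter was under 2-fold when the arrays were quantile normalised or adjusted by cyclic loess. The sham genotype differences of these 3 genes (0.70, 1.13 and 1.03 for Snord16a, Scarna17 and Snord14e) and the ligation differences share the sham arrays.

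In wild type alone, 3 of the 65 were at least 2-fold higher after ligation (4.62%) and 1 lower (1.54%), beside 4.97% and 2.83% of all genes (7.8% either way), shares near the background. The median was 0.13, against -0.06 for all genes and -0.15 for microRNA genes. Snord57 (-1.99) was the only gene lower, and Snord95 (0.9987) and Snord38a (0.96, with a sham value under background) lay just under the threshold. With the array labelled Cd39-null, ligated, 9 were higher (13.8%) and 1 lower (1.54%), beside 8.19% and 4.64% of all genes (12.8% either way), with a median of 0.23 against -0.08 for all genes and -0.20 for microRNA genes. Those 9 were Snord104, Snora73b, Snord16a, Scarna17, Rmrp, Snora3, Snord57, Snord14e and Snora7a, and the gene lower was Rnu2-10 (-1.36). Snora7a (1.0047) lay just inside the threshold and Snord118 (0.9896, with a sham value under background) just outside.

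Snord104, a box C/D guide, read 5.23, 6.18, 4.30 and 6.45, lowest in Cd39-null sham and high on both ligated arrays. Its ligation difference was 0.95 in wild type and 2.15 in Cd39-null. Snora73a and Snora73b are the U17 RNAs, needed for cutting the small-subunit rRNA precursor, and lie together in Snhg3. Snora73b read 2.66, 3.59, 2.82 and 4.87 and Snora73a read 2.83, 3.54, 2.87 and 3.66. In both, the sham arrays were under background and the ligated arrays above it. The array labelled Cd39-null, ligated set the neighbours apart, with a ligation difference of 2.05 for Snora73b (at least 3.72-fold against background) and 0.79 for Snora73a. Snora7a read 3.21, 3.91, 3.41 and 4.42, with both ligated arrays above both sham arrays. Snora3, in Rpl27a, read 5.98, 6.04, 5.10 and 6.49, where a low Cd39-null sham value made the difference of 1.39.

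Besides Rmrp, 3 of the RNAs needed for cutting the rRNA precursor (U3, U8, U14, U17 and U22) were above background on all arrays. By ligation in wild type these differed by 2.07 (Snord14e), 0.32 (Snord22) and -0.17 (Rnu3a). Snord22, the U22 RNA in Snhg1, read 3.53, 3.85, 4.19 and 4.39, all above background. By genotype in sham they differed by 1.03, 0.66 and 2.85. The U17 pair was under background on both sham arrays and Snord118 on both wild-type arrays, so these differences could not be read for them.

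Snord57, a box C/D guide in the gene of the box C/D core protein Nop56, went opposite ways in the genotypes. It read 4.67 (sham) and 2.68 (ligated) in wild type and 2.59 and 3.72 in Cd39-null. Wild-type sham was the highest, Cd39-null sham was under background, and wild-type ligated lay just above background (2.66 on that array). The ligation difference was -1.99 in wild type and 1.12 in Cd39-null, and 38 of 18820 genes (0.202%) were likewise at least 2-fold apart in opposite directions. Against background the Cd39-null difference was at least 1.68-fold, under the threshold. The differences between the ligation differences of the genotypes exceeded 1.0 for 6 of 65 genes, beside 5.36% of all genes, and lay under -1.0 for 5, beside 4.44%.

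With ligation, 11 of 11 monocyte and macrophage markers were at least 2-fold higher in wild type and 9 of 11 in Cd39-null, with median levels of 4.92, 7.01, 5.37 and 7.57. Of 14 cell cycle markers, 12 and 5 were higher, with median levels of 3.57, 5.51, 3.91 and 5.28. Of 12 endothelial markers, 7 were at least 2-fold lower in wild type and 0 in Cd39-null, and of 7 platelet markers 5 were lower in wild type and all 7 higher with the array labelled Cd39-null, ligated. In Cd39-null ligation 7 of 9 adipocyte markers, 6 of 7 B cell markers and 3 of 6 T cell markers were at least 2-fold lower, with medians of -1.91, -2.22 and -0.91. The part of these marker differences in the ligation results of the small RNA genes was not tested.

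**Figure D3:**
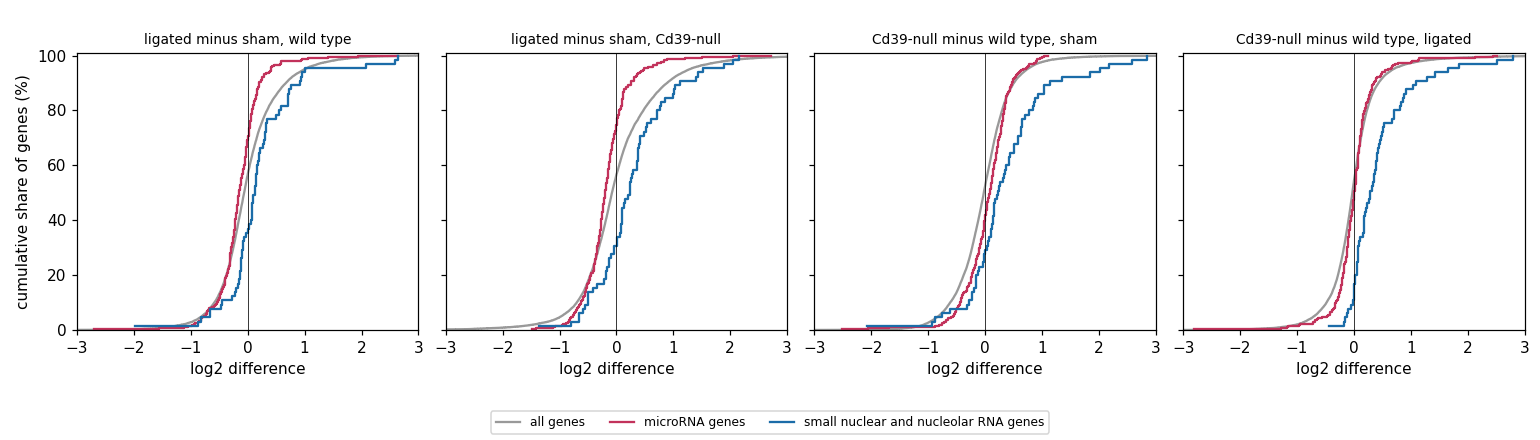
Cumulative share of genes (vertical axis, percent) against the log2 difference (horizontal axis, from -3 to 3) in each of the 4 comparisons, for all genes (grey), 306 microRNA genes (red) and the 65 small nuclear and nucleolar RNA genes (blue). The blue line lies to the right of the grey line over most of its length in the 4 panels, with medians of 0.13, 0.23, 0.23 and 0.29 against -0.06, -0.08, -0.02 and -0.03.

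For 35 of the 65, exactly 1 containing gene was known and measured by a probe set of its own (30 such genes, with Gas5 taken for Snord47). The small RNA and the containing gene had the same sign in 10 of 35 pairs for wild-type ligation, 18 for Cd39-null ligation, 16 for genotype in sham and 23 for genotype in ligated veins. Of these 35 small RNAs, 16 were above background on no array, so their signs carry no reading. Among the pairs whose small RNA was above background on both arrays compared, 2 of 11 had the same sign in wild-type ligation, 7 of 13 in Cd39-null ligation, 6 of 11 by genotype in sham and 9 of 14 by genotype in ligated veins. In wild-type ligation 4 small RNAs measured at least 2-fold above their containing gene and 5 at least 2-fold below. With values under background set to it, and RNAs under it on both arrays left out, 3 were above (Snord16a, Snord14e and Snord47) and 2 below (Snord57 and Snora52). None of the 30 containing genes was itself at least 2-fold apart in that comparison. A probe set within an intron can also read unspliced host RNA, and this array cannot tell the mature guide RNA from its precursor.

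Snord16a, taken against background in sham, was at least 1.66 above the wild-type ligation difference of its host Rpl4. Rpl4, a large-subunit ribosomal protein gene, itself differed by -0.35 in wild type and -0.28 in Cd39-null. Snord14e was 2.09 above Hspa8, which differed by -0.02 and 0.41. Snord47 in the noncoding gene Gas5 was 1.05 above, and Snora21 in Rpl23, under background in sham, only 0.74 above against it. Snord16a, Snord14e and Snord47 were thus higher on the ligated wild-type array where their hosts were level or lower. In the other direction, Snord57 was 2.87 below Nop56, whose own ligation differences were 0.88 and 1.30. Snora52 differed from Rplp2 by -1.06. Its wild-type ligated value and that of Snord57 were just above background, at 2.69 and 2.68 against 2.66. Snord15a in Rps3 and Snord35a in Rpl13a were under background on both wild-type arrays and could not be read there, and Snord82 in Ncl, under it after ligation, had a gap of -0.71 against background.

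Neighbours inside 1 host could differ. Ncl, the gene of nucleolin, contains the H/ACA guide Snora75 and the box C/D guide Snord82. Snora75 read 4.24, 4.52, 5.02 and 5.38 and Snord82 read 3.17, 2.36, 3.83 and 3.02. By genotype both read higher, by 0.77 and 0.65 in sham and by 0.86 and 0.66 in ligated veins, short of 2-fold. By ligation in Cd39-null they differed in sign, at 0.36 for Snora75 and -0.80 for Snord82. In wild type the values were 0.28 and -0.82, the latter with a ligated value under background.

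**Figure D4:**
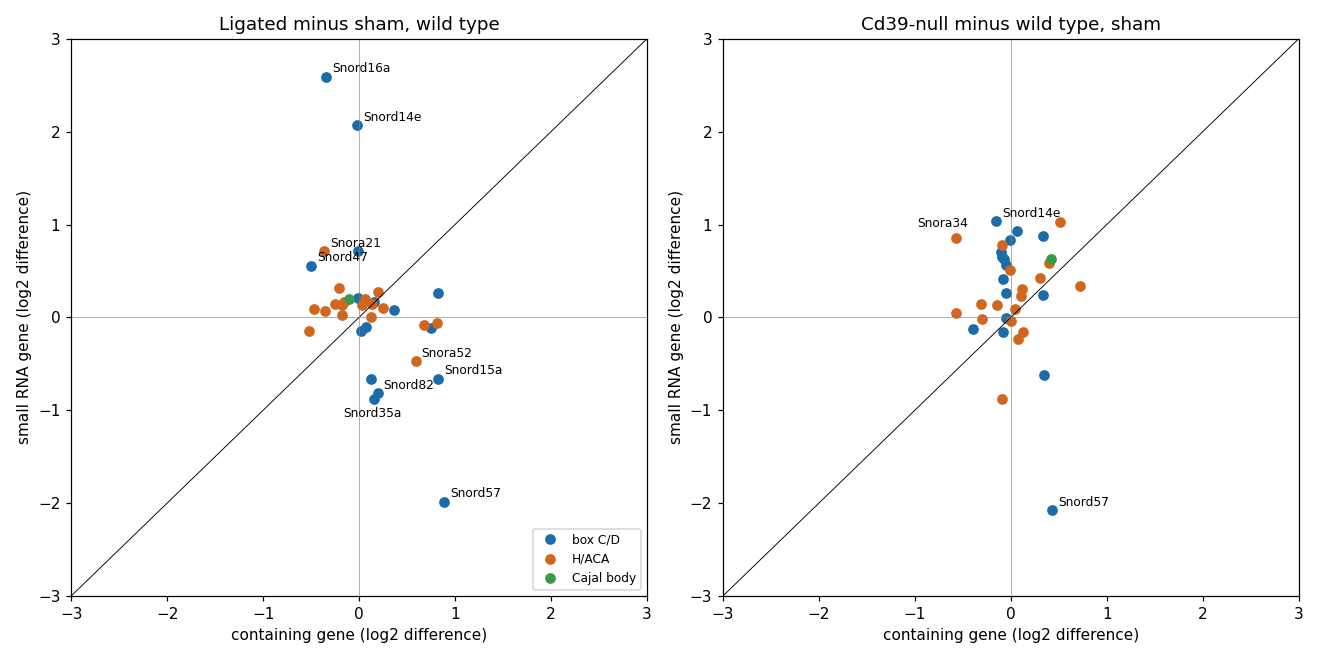
Log2 difference of 35 guide RNA genes (vertical axis) against that of the measured gene containing each (horizontal axis), for wild-type ligation on the left and genotype in sham veins on the right; the diagonal marks equal differences, and genes at least 1.0 from it are named. In the left panel Snord16a and Snord14e lie far above the diagonal, in both panels Snord57 lies far below it, and the containing genes stay within 1.0 of 0; 16 of the 35 small RNAs, among them Snora34, were above background on no array.

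The proteins that work with these RNAs are to be read against the 4.97% (wild type) and 8.19% (Cd39-null) of all genes that were at least 2-fold higher after ligation, and the lists are short. Of 5 measured box C/D core proteins, 1 was at least 2-fold higher in wild type and 2 in Cd39-null, with medians of 0.30 and 0.76. They were Fbl, the methyltransferase fibrillarin (1.25 and 0.73), Nop56 (0.88 and 1.30) and Snu13, which binds the kink of the RNA (0.22 and 1.02). Of 6 H/ACA proteins (core proteins and the assembly factors Naf1 and Shq1), only Nhp2 was at least 2-fold higher, at 3.02 and 3.09. The pseudouridine synthase Dkc1 differed by 0.39 and 0.66. None of these 11 was at least 2-fold apart by genotype in sham, and Dkc1 (1.04) was the one in ligated veins.

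Of 16 Sm and LSm proteins, which form the rings on small nuclear RNAs, 0 were at least 2-fold higher by ligation in wild type and 5 in Cd39-null, with Snrpd3 at 0.74 and 2.03. These 5 (Snrpd1, Snrpd2, Snrpd3, Lsm5 and Lsm7) read lower in Cd39-null sham, with genotype differences from -0.47 (Lsm7) to -0.81 (Lsm5). In ligated veins 0 of the 16 were 2-fold apart by genotype, with a median of 0.13. Counts of 1 in the lists that follow are near those shares of all genes. Of 23 proteins specific to single small nuclear particles, 1 and 4 were higher. Of 15 assembly factors of these particles, 0 and 3 were higher and 1 was lower in wild type. Among 20 genes of small nuclear RNA transcription and 3′ end formation none was 2-fold apart by ligation. Of 16 trimming and decay factors 0 and 1 were higher, and of 10 assembly factors of nucleolar particles 0 and 1, the latter being Nolc1 (1.12). A list of mostly noncoding host genes had 11 measured genes, among them the protein-coding Cwf19l1 and Tmem107. In wild-type ligation 2 were higher, Rian (1.52) and Meg3 (1.21), and 0 lower. In Cd39-null 0 were higher and 1 was lower, Rian (-1.06). Neither Rian nor Meg3 contains a small RNA gene of the set studied here.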

How the data were processed

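Expression was measured on 4 whole-transcript Affymetrix arrays, 1 per group, each with RNA pooled from 4 mice. Per the labels' protocols, cDNA was amplified from 50 ng of total RNA and 3 µg of it was biotinylated. Deposited was a log2 expression value for each probe set. Per the submitters' processing notes the authors used RMA and oligo, with versions not given in the sources. RMA equalises the arrays, so a global change in RNA content would not show. The values were used as deposited, and fold changes are differences of log2 values. The number of arrays limits the precision.

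The platform annotation named 1 gene for 21218 of 35556 probe sets, several for 1881 and none for 12457. The 65 genes had 83 probe sets, and another 28 probe sets that name such an RNA among several genes were left out, of which 2 name one of the 65 (Rnu7). All 65 matched RefSeq by Entrez ID. Containing genes came from spans in RefSeq's table (GRCm38.p6), which gives no strand, where the same strand had been planned. Promoter sequences came from the same build, with those of chromosome 18 left out.

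The members, lists and rules were chosen with earlier results of these data known. With 1 array per group no test was run. Genes named in the text were: for each comparison the 6 highest and 6 lowest members at least 2-fold apart and above background on 1 of the arrays compared, those in both genotypes, every Cajal body, small nuclear and RNase MRP gene, the subgroups, the 5 largest differences from a host in each direction, and up to 4 partners of each list. Other genes named were chosen after their values were seen: neighbours within a host, genes next to the threshold, and examples of dim genes. Alternatives were quantile normalisation and cyclic loess (limma 3.58.1), median centring, the mean of probe sets, filters on dim genes, 1.5- and 3-fold thresholds, and wild-type sham as reference. Host comparisons limited by background were chosen after seeing the data. The code was tested on simulated data.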

Additional observations from a re-analysis of the deposited data

Results flagged for a closer look

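Snord57 was the only one of the 65 genes at least 2-fold apart in opposite directions after ligation, at -1.99 in wild type and 1.12 with the array labelled Cd39-null, ligated, a difference of 3.11. With 1 pooled array per group, this difference was not tested. The Cd39-null sham value of Snord57 was under background, so its rise there was at least 1.68-fold, under the threshold. Its wild-type ligated value (2.68) was just above background (2.66).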

How the results depend on the processing

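Of 339 recomputed values, 137 of counts and medians and 176 of single genes stayed within the limits set (within 1.5 times the count or the fold). For medians this limit was wider than any of the medians as deposited, so little but a change of sign could exceed it. Under quantile normalisation the Cd39-null ligation median went from 0.13 to 0.27 (box C/D) and from 0.24 to 0.11 (H/ACA). Both counted as within the limit, although the order of the classes changed. At 1.5-fold, more genes pass by construction: 13 higher and 5 lower in wild-type ligation, 16 and 4 in Cd39-null ligation, 20 and 5 by genotype in sham, 16 higher by genotype in ligated veins, and 9 higher in both genotypes and 9 in both surgeries. At 3-fold, fewer pass: 3 higher and 0 lower in Cd39-null ligation, 5 and 4 higher by genotype in sham and ligated veins, 1 in both genotypes (Snord16a) and 3 in both surgeries (Rmrp, Rnu3a and Snord49b). Centring on the median gave 5 higher in wild-type ligation, since it adds 0.05 to each difference there and Snord95 (0.9987) and Snord38a (0.96) lay just under 1.0. Adding probe sets of several member symbols, chosen after seeing the data, gave 2 lower there. With wild-type sham as the reference of the array labelled Cd39-null, ligated, 15 were higher and 0 lower, Rnu2-10 turned to 0.81, and Rmrp was 3.28, Snord16a 2.60, Scarna17 2.65, Snord14e 2.06, Snord104 1.21 and Snora3 0.52. The 5 genes higher on both Cd39-null arrays were the same under the 3 scalings, the mean of probe sets and both filters. Rnu3a, Rmrp, Snord49b and Snora52 have 1 probe set each and were above background on all arrays. Neither the mean of probe sets nor the background filter could therefore change them. Rnu2-10 passed the background filter only through the Cd39-null arrays, and its ligated difference against background was at least 1.68-fold, under the threshold. No scaling moved the median of all genes by over 0.1. Leaving out the array labelled Cd39-null, ligated gives no value for its comparisons. No paired analysis was possible because each group has 1 array and the labels give no replicate numbers.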

Other observations

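Probe sets that name a small RNA together with other genes were outside the 65 genes, and are given as values. The probe set of Snord32a and its host Rpl13a read 6.39, 4.99, 7.79 and 5.75 in the order wild type (sham, ligated), then Cd39-null (sham, ligated, as labelled). That of Snord14c and Snord14d with their host Hspa8 read 4.99, 6.36, 6.08 and 7.03, with ligation differences of 1.37 and 0.94. The brightest probe set of the U1 genes Rnu1b1, Rnu1b2 and Rnu1b6 read 4.00, 3.68, 3.92 and 3.95.

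Other short noncoding RNAs outside the set were picked after their values were seen. Rn7sk, the RNA that holds the transcription elongation factor P-TEFb inactive, read 10.00, 9.13, 10.31 and 9.68. Its genotype differences were 0.31 in sham and 0.55 in ligated veins. Rny3, a Y RNA, read 7.45, 6.18, 8.15 and 7.44, with genotype differences of 0.70 in sham and 1.26 in ligated veins. Rny1, also a Y RNA, differed by genotype by 0.33 in sham and 0.19 in ligated veins. Vaultrc5 differed by 0.35 and 0.58, with values under background on all arrays. Terc, the RNA of telomerase, lay under background on all arrays, at 1.96 to 2.46, and differed by -0.49 and -0.14.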
